A study of Rattus norvegicus with 8 samples.

Results

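The genes described here encode the large scaffold proteins of the postsynaptic density, the protein sheet under the receiving side of excitatory synapses. They were followed in RNA of the medial thalamus of rats conditioned with tracheal occlusions and of surgical controls. The 10 genes were listed by name and not by any measured value: Dlg1, Dlg2, Dlg3, Dlg4, Dlgap1, Dlgap2, Dlgap3, Shank1, Shank2 and Shank3. On the array they made up 10 of 18336 named genes and were covered by 12 of 41012 distinct probes. Of these, 7 probes of 6 genes carried the listed symbol, and 5 probes of 4 genes carried the older symbols Dlgh1, Dlgh2, Dlgh3 and Dlgh4 and were taken in through their RefSeq accessions. Dlg4 and Shank2 had 2 probes each, and every other gene had 1.

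All animals were male Sprague-Dawley rats studied while conscious. In the occlusion group (n = 4) the airway was closed for 3 to 10 breaths at a time, with about 30 s of recovery between trials, in daily sessions over 10 days. The surgical controls (n = 4) had daily sessions over the same 10 days without any occlusion. Tissue came from animals put to death at most 10 min after the final session, and the labels give no ages. Each animal gave 1 single-colour array, and each of the 2 slides held 2 occlusion and 2 control arrays. On each array 65.0% to 71.6% of spots were well above background, and correlations between arrays ran from 0.953 to 0.986.

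Scaffolds of the postsynaptic density work as a layered chain. Proteins of the Dlg family, also called membrane-associated guanylate kinases, bind the tails of glutamate receptors and channels through PDZ domains close to the membrane. Proteins of the Dlgap family attach to the guanylate kinase domain of the Dlg proteins, and the Shank proteins bind the Dlgap proteins and tie them to Homer and to the actin skeleton of the spine. Dlg4 encodes PSD-95, the best known of these scaffolds.

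Each probe is a 60-base oligonucleotide, and the genes belong to families whose coding sequences are related. The probes are therefore set against each other first. Whether a probe also reads the RNA of a related gene was not tested. The probes of Dlg4, Dlg2 and Dlg3 could be aligned with each other without gaps. Capitals mark, in the Dlg4 probe, the 25 bases shared with both others in an ungapped alignment, and in the Dlg2 and Dlg3 probes the bases shared with the Dlg4 probe.
Dlg4, single-spot probe: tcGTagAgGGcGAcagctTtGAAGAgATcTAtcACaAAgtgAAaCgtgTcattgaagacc
Dlg2: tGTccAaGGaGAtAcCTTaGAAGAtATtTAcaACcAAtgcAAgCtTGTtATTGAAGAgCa
Dlg3: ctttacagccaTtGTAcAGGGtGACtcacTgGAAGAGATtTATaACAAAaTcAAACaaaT
The Dlg2 probe matched the Dlg4 probe at 39 of 59 aligned bases (66.1%) and the Dlg3 probe at 34 of 49 (69.4%). Dlgap2 and Dlgap4, a relative that is not among the 10 genes, were likewise read by probes that could be aligned over their whole length, with 42 of 60 bases (70.0%) in common, shown in capitals.
Dlgap2: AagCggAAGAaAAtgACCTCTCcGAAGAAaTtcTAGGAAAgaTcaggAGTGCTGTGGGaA
Dlgap4: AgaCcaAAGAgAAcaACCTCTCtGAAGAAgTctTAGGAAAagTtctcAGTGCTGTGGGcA
The probes of Dlgap3 and Dlg1 and the 10-spot probe of Dlg4, whose groups did not overlap, are given in lower case only. None of them matched another probe of the set at more than 57.1% of aligned bases.
Dlgap3: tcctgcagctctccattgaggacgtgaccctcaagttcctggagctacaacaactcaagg
Dlg1: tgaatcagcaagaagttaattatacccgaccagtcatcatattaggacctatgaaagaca
Dlg4, 10-spot probe: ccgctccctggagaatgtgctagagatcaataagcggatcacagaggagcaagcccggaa

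The probe positions below are those of the array design on rat assembly rn3. Which exon a probe lies in is not given, because no annotation of that assembly was used. A level is the log2 of the processed intensity of a probe minus the 75th percentile of its array, so that 0 is the level of the probe at that percentile, and levels of different probes are not set against each other. A difference is the mean level of the occlusion arrays minus that of the control arrays on the log2 scale. All 12 probes passed the filter on dim probes, 10 of them well above background on all 8 arrays, and none was saturated on any array. Beside every difference stands the adjusted p of limma over all 27152 kept probes. In bulk tissue a lower level can come from fewer cells that express the gene or from less RNA per cell, and these cannot be told apart.

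No member passed the test between the groups. The adjusted p was under 0.05 for 0 of 12 member probes and for 0 of 27152 kept probes (percent called 0.0), the smallest among the members being 0.403. At an unadjusted p under 0.05 stood 5 member probes, those of Dlg1, Dlg2, Dlgap3 and Shank3 and the 10-spot probe of Dlg4, where 11.1% of all kept probes did. Of these, 3 were higher on occlusion arrays (6.48% of kept probes) and 2 were lower (4.61%). The groups did not overlap for 3 member probes, where 6.71% of all kept probes were so separated. Over the 12 probes 8 read higher and 4 lower on occlusion arrays (53.6% of kept probes read higher), and the median difference was 0.24 (0.13 without control array 2), against 0.02 over all kept probes. With only the brightest probe of each gene, 6 of 10 genes read higher and 4 lower, with a median difference of 0.21. The mean level over these 10 probes differed by 0.08 between the groups.

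**Figure D1:**
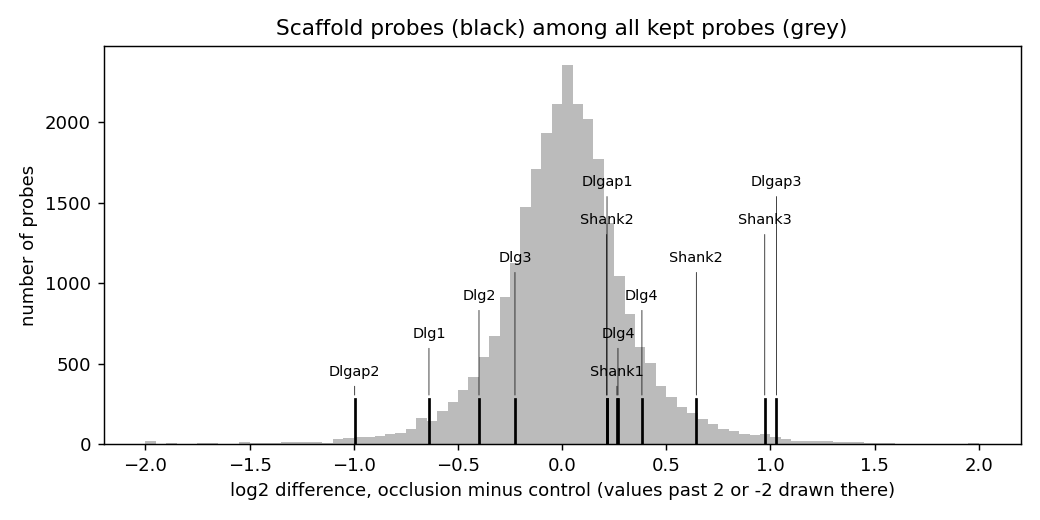
Histogram of the log2 difference, occlusion minus control, of all 27152 kept probes (grey, number of probes on the vertical axis), with the 12 scaffold probes as black lines. The scaffold probes run from -0.995 (Dlgap2) to 1.03 (Dlgap3), and 8 of the 12 lie above 0.

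Among the Dlg genes, Dlg4 read higher and the other 3 read lower on occlusion arrays. The 10-spot Dlg4 probe (chr10:56902480-56903016) read -1.93, -1.75, -1.72 and -1.87 on the occlusion arrays 1 to 4, against -2.34, -2.45, -2.02 and -1.999 on the control arrays 1 to 4. The lowest occlusion array lay above the highest control array, so the groups did not overlap. Means were -1.82 ± 0.10 on occlusion arrays and -2.20 ± 0.23 on control arrays (SD, n = 4 each), a difference of 0.38 (SE 0.13, 95% interval 0.08 to 0.69, 1.30-fold, limma adjusted p = 0.403). On slide 1 alone it was 0.34, and on slide 2 alone 0.42.

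The single-spot Dlg4 probe (chr10:56903308-56903367) read the same way with a smaller difference. It gave -2.57, -2.40, -2.44 and -2.68 on occlusion arrays, against -2.97, -3.09, -2.59 and -2.50 on control arrays. Here 2 control arrays, 3 and 4, reached into the range of the occlusion arrays. The difference was 0.27 (SE 0.16, 95% interval -0.09 to 0.63, limma adjusted p = 0.542). It was 0.17 without control array 2 and 0.18 with normexp background correction.

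Because the first Dlg4 probe was printed 10 times on every array, its technical error could be read within an array. The SD between spots of 1 array ran from 0.06 to 0.17 with a median of 0.08, and 1 spot carried an outlier flag on each of 2 arrays and was left out. The SD between arrays was 0.10 in the occlusion group and 0.23 in the control group. Control arrays 1 and 2 read low, and control arrays 3 and 4 lay close to the occlusion arrays.

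**Figure D2:**
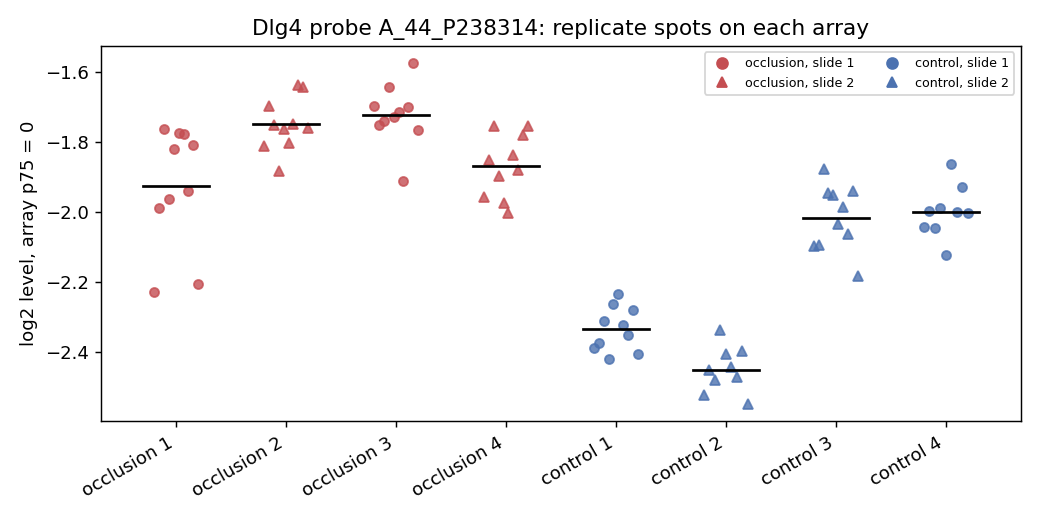
Log2 level of every used spot of the 10-spot Dlg4 probe on the 4 occlusion (red) and 4 control (blue) arrays, with circles for slide 1, triangles for slide 2 and a black line at each array's mean. The means of the occlusion arrays lie between -1.93 and -1.72 and those of the control arrays between -2.45 and -1.999, while single spots of occlusion array 1 reach -2.23.

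Dlg1 encodes SAP97, a relative of PSD-95 that is also found along axons and in epithelia and takes part in the traffic of AMPA receptors. Its probe (chr11:70807276-70808200, listed from the higher to the lower coordinate) read -2.47, -2.67, -2.84 and -2.06 on occlusion arrays, against -1.96, -1.76, -1.80 and -1.95 on control arrays. Every occlusion array lay below every control array, and occlusion array 4 came closest. Means were -2.51 ± 0.33 on occlusion arrays and -1.87 ± 0.10 on control arrays (SD, n = 4 each), a difference of -0.64 (SE 0.17, 95% interval -1.03 to -0.25, limma adjusted p = 0.403), with -0.69 within slide 1 and -0.59 within slide 2. It was the 1 member probe that was lower without overlap, where 2.82% of kept probes were.

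Dlg2, which encodes PSD-93, read -1.48, -1.28, -1.33 and -1.33 on occlusion arrays, against -1.14, -0.86, -0.55 and -1.28 on control arrays (chr1:149352770-149352829). The occlusion arrays lay close together (SD 0.09, against 0.32 for control arrays), and control array 4 met the highest occlusion array. The difference was -0.40 (SE 0.17, 95% interval -0.78 to -0.02, limma adjusted p = 0.434). It was -0.26 without control array 3, the highest of the controls.

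Dlg3, which encodes SAP102, a scaffold prominent at young synapses, read -1.24, -1.25, -1.42 and -1.35 on occlusion arrays, against -1.29, -1.58, -0.41 and -1.08 on control arrays (chrX:88899969-88901029). Control array 3 stood above all others, and the remaining arrays of both groups overlapped. The difference was -0.23 (SE 0.23, 95% interval -0.75 to 0.30, limma adjusted p = 0.739) and came to 0.00098 without control array 3, -0.39 without control array 2 and -0.08 with array weights. A further probe that the array design describes by the GenBank number U53367, one of the accessions listed for the Dlg3 probe, lies beside it (chrX:88903068-88903127). It belongs to no listed symbol and was looked at after the values were seen, and it read 0.03 (SE 0.21).

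Among the Dlgap genes, which encode the middle layer of the scaffold, Dlgap3 had the largest difference of all 12 probes, Dlgap1 differed little and Dlgap2 was close to background. Dlgap3, also called SAPAP3, is best known from the striatum of the mouse, where its loss leads to compulsive grooming. Its probe (chr5:146693929-146693988) read 0.53, 0.09, 0.03 and 0.32 on occlusion arrays, against -0.59, -1.43, -0.84 and -0.28 on control arrays. All occlusion arrays lay above 0 and all control arrays below it. Means were 0.24 ± 0.23 on occlusion arrays and -0.79 ± 0.49 on control arrays (SD, n = 4 each), a difference of 1.03 (SE 0.24, 95% interval 0.47 to 1.59, 2.04-fold, limma adjusted p = 0.403). Once slide entered the fit, the limma adjusted p was 0.242 for Dlgap3, Dlg1 and Shank3 alike, the smallest value of any kept probe. Other probes shared that value, among them Dlgap4, so it does not rank these genes first. Within slide 1 the difference of Dlgap3 was 0.72 and within slide 2 it was 1.34. The change of the difference from slide to slide did not pass (limma interaction 0.63, adjusted p = 0.959).

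Dlgap1 encodes GKAP, the first known partner of the guanylate kinase domain of PSD-95. It read 2.45, 2.06, 1.99 and 2.34 on occlusion arrays, against 1.99, 1.51, 2.46 and 2.01 on control arrays (chr9:110228156-110228215). The groups overlapped throughout, with control array 3 the highest of all 8 and control array 2 the lowest. The difference was 0.22 (SE 0.21, 95% interval -0.26 to 0.69, limma adjusted p = 0.721), and 0.13 without occlusion array 1, 0.06 without control array 2 and 0.37 without control array 3.

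Dlgap2 was measured above background on only some arrays, 1 of 4 in the occlusion group and 3 of 4 in the control group. It read -6.22, -5.55, -3.99 and -5.76 on occlusion arrays, against -4.73, -4.38, -3.20 and -5.22 on control arrays (chr16:79619961-79628630, listed from the higher to the lower coordinate). Occlusion array 3 and control array 3 were the highest of their groups, and the groups overlapped. The difference of -0.995 (SE 0.56, 95% interval -2.27 to 0.28, limma adjusted p = 0.523) was -0.13 within slide 1 and -1.86 within slide 2. Its size is uncertain at this signal, and it was -0.60 without control array 3 and -0.39 with normexp background correction.

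All 4 Shank probes read higher on occlusion arrays, and that of Shank3 by the most. Shank3 encodes the Shank protein whose gene is tied to autism spectrum conditions in people. Its probe (chr7:127911834-127911893) read 4.18, 3.58, 3.46 and 3.89 on occlusion arrays, against 2.95, 2.12, 2.66 and 3.49 on control arrays. Control array 4 lay just above occlusion array 3, and the other 3 control arrays lay below every occlusion array. Means were 3.78 ± 0.32 on occlusion arrays and 2.80 ± 0.57 on control arrays (SD, n = 4 each), a difference of 0.97 (SE 0.29, 95% interval 0.30 to 1.64, 1.96-fold, limma adjusted p = 0.403), with 0.60 within slide 1 and 1.34 within slide 2.

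Shank1, whose loss in mice makes spines smaller, read -0.69, -0.98, -0.64 and -1.13 on occlusion arrays, against -1.30, -1.43, -0.92 and -0.85 on control arrays (chr1:94918064-94918123). Control arrays 3 and 4 lay inside the range of the occlusion arrays. The difference was 0.26 (SE 0.18, 95% interval -0.14 to 0.67, limma adjusted p = 0.597), and 0.16 without control array 2.

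Shank2 had a bright and a dim probe, which the array design assigns to different transcript variants. The bright probe (chr1:205008364-205008423) read -0.65, -0.48, -0.88 and -0.79 on occlusion arrays, against -0.91, -1.24, -0.69 and -0.81 on control arrays, a difference of 0.21 (SE 0.15, 95% interval -0.13 to 0.56, limma adjusted p = 0.610). The dim probe (chr1:205005382-205005441) read -4.95, -4.55, -4.15 and -5.22 on occlusion arrays, against -5.38, -6.03, -5.07 and -4.97 on control arrays, a difference of 0.64 (SE 0.30, 95% interval -0.03 to 1.32, limma adjusted p = 0.461). The groups overlapped on both probes, and the dim one was well above background on all 4 occlusion and 3 of 4 control arrays. Control array 2 was the lowest array on both, and without it the differences were 0.11 for the bright and 0.42 for the dim probe. Without occlusion array 2 the bright probe gave 0.14, and with normexp background correction the dim probe gave 0.23.

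**Figure D3:**
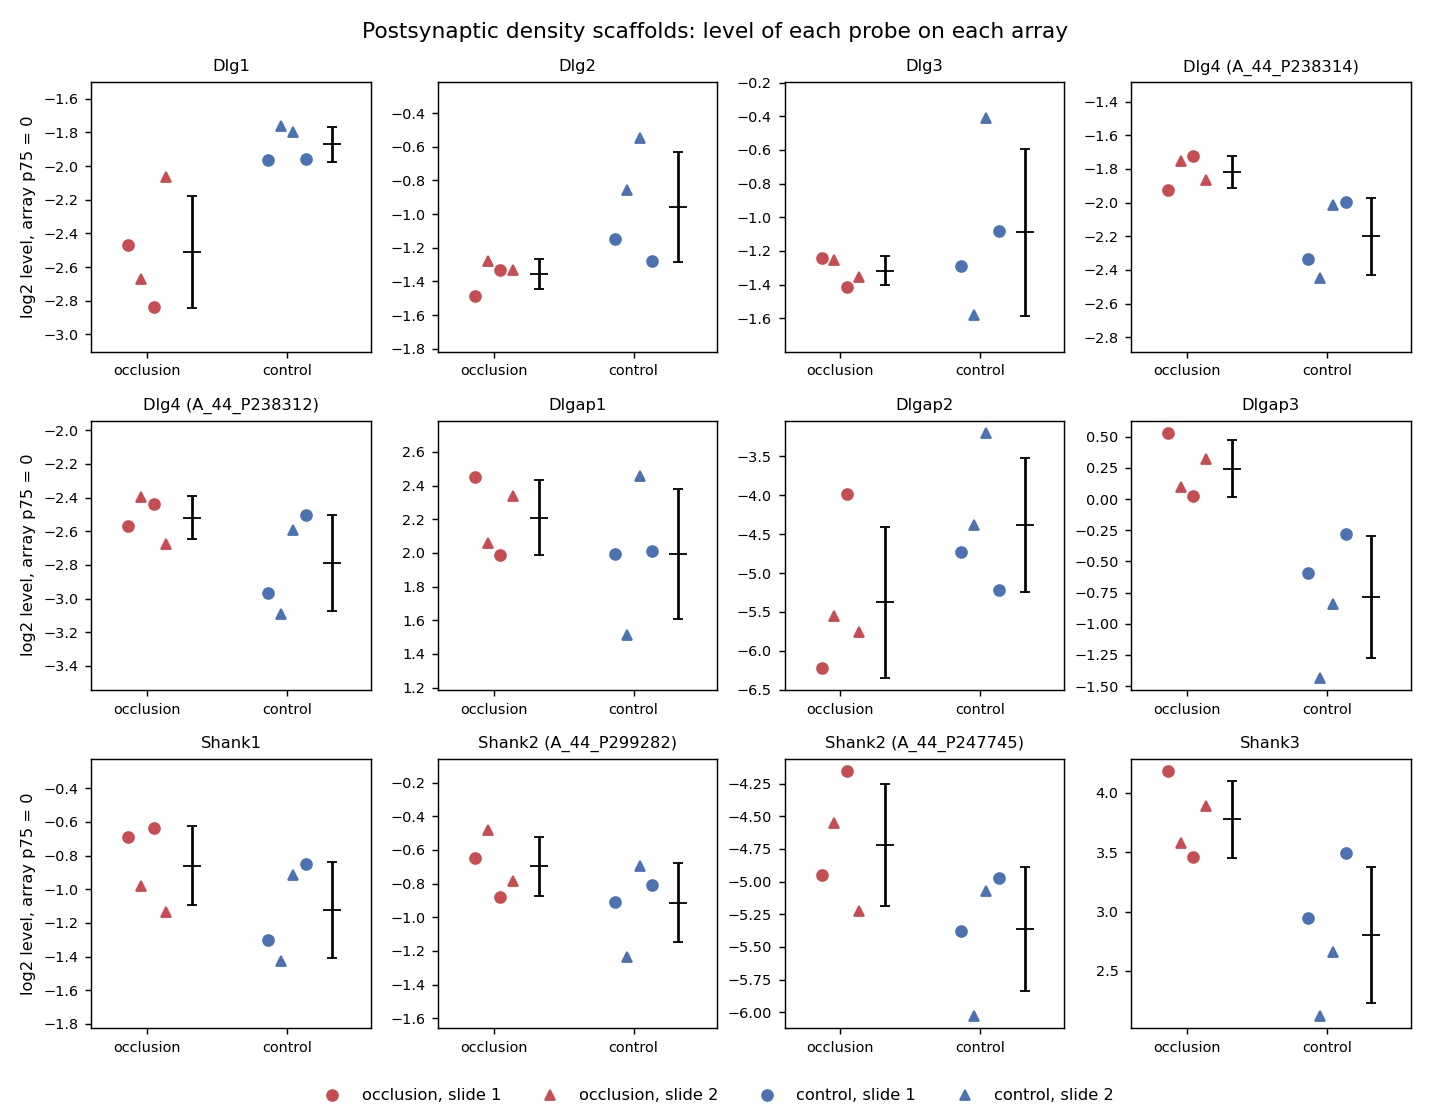
Log2 level of each of the 12 scaffold probes on every array, occlusion in red on the left and control in blue on the right, with circles for slide 1, triangles for slide 2 and black bars for the mean ± SD of 4 arrays. Dlgap3 and the 10-spot Dlg4 probe are higher without overlap on occlusion arrays and Dlg1 is lower without overlap, and each panel has its own vertical range.

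The sign of the difference was the same within slide 1 and within slide 2 for all 12 probes, where 61.5% of kept probes kept their sign. With group in the fit, 1944 of 27149 probes (7.16%, 1.11% higher and 6.05% lower on slide 2) passed an adjusted p of 0.05 in limma between slide 2 and slide 1, and 0 of the 12 members did. The largest negative slide differences among the members were those of Shank3, at -0.46 (SE 0.25, limma adjusted p = 0.463), and Dlgap3, at -0.39 (SE 0.21, limma adjusted p = 0.460). The smallest adjusted p of limma among the members was 0.315, for Dlg2, which read higher on slide 2 by 0.31 (SE 0.13). No probe passed the test of a group difference that changed with the slide (0 of 27091 probes past an adjusted p of 0.05 in limma, percent called 0.0, with 4.3% at an unadjusted p under 0.05).

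**Figure D4:**
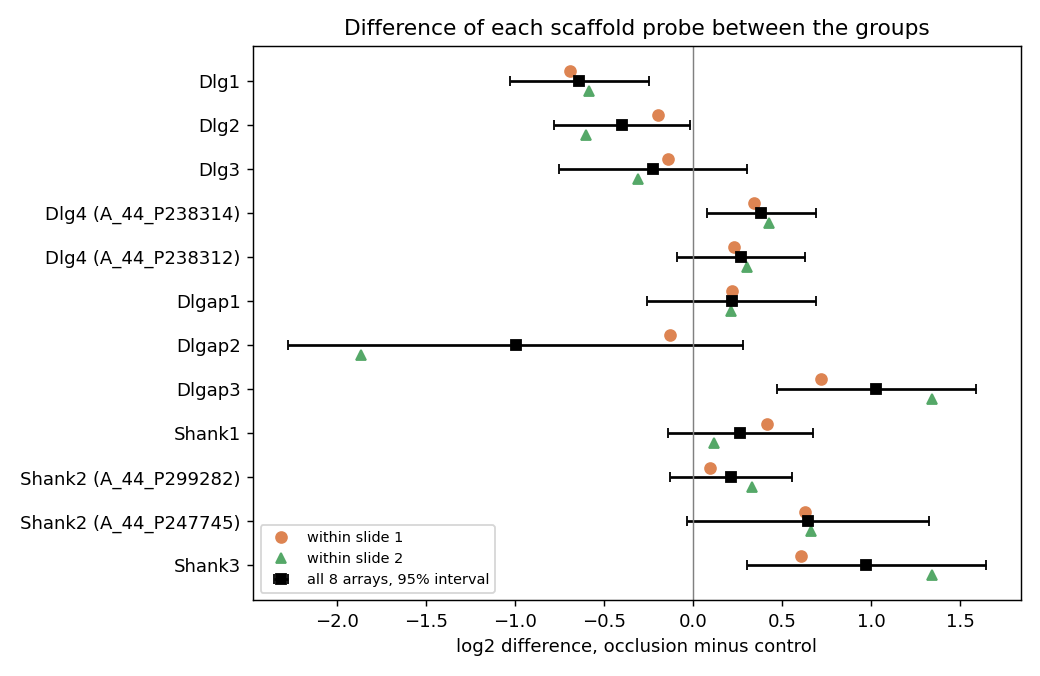
Log2 difference, occlusion minus control, of each scaffold probe over all 8 arrays (black squares with 95% intervals) and within slide 1 (orange circles) and slide 2 (green triangles). The intervals of Dlg1, Dlg2, Dlgap3, Shank3 and the 10-spot Dlg4 probe do not include 0, before any adjustment, and both slides lie on the same side of 0 for every probe.

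Relay neurons are the thalamic cells that send excitatory axons to cortex, and the levels of their markers and of markers of other cells are given here beside the scaffolds. All 11 measured relay markers of 14 listed read higher on occlusion arrays (median 0.70), and Lef1 (1.45) did so without overlap. Of these markers 0 passed the test and 3 were saturated on at least 1 array. Their mean level was 1.49, 1.07, 0.82 and 1.35 on occlusion arrays 1 to 4, against 0.59, 0.05, 0.23 and 0.85 on control arrays 1 to 4, so that the groups overlapped by control array 4 and occlusion array 3. Of 9 markers of the reticular nucleus and other inhibitory neurons 8 read lower (median -1.35), with 0 past the test and Gad1 (-2.52) lower without overlap. The mean level of these 9 ran from -2.66 to -1.17 on occlusion arrays and from -1.30 to 0.41 on control arrays, which overlapped by the same 2 arrays. Of the 8 striatal markers 7 read lower, with a mean level from -2.21 to -1.80 on occlusion arrays and from -2.14 to -1.23 on control arrays. Of the 8 markers of cortical and hippocampal excitatory neurons 4 were measured, at a mean level from -2.44 to -1.497 on occlusion arrays and from -3.55 to -1.01 on control arrays, and Emx1 was well above background on no array. Habenula markers had a mean level from -3.43 to -0.12 on occlusion arrays and from -4.98 to 0.73 on control arrays, with control array 3 the lowest. Oligodendrocyte markers read lower for 6 of 8 (median -0.45), with Mobp lower (-0.71) and Mbp higher (0.31, saturated on 6 arrays) without overlap. Mobp had values on only 2 of 4 occlusion arrays and Mbp on 3 of 4. Those of the choroid plexus read lower for 4 of 6 measured, with Clic6 lower (-0.91) and Ttr higher (1.83) without overlap. Astrocyte markers read lower for 3 of 8 (median 0.04), those of microglia for 5 of 8 (-0.10) and those of endothelium for 1 of 5 measured (0.17). The 8 general neuronal markers differed by a median of 0.11, with Syt1 (0.47) higher without overlap.

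Shank3 and Dlgap3 followed the mean of the relay markers from array to array. The 8 arrays stood in the same order by Shank3 as by the mean of the relay markers, control arrays 2, 3 and 1, then occlusion array 3, control array 4 and occlusion arrays 2, 4 and 1. For Dlgap3 the order differed only in that control array 4 stood below occlusion array 3. Over the 8 arrays, Pearson's r with the relay mean was 0.983 for Shank3 (Spearman's rho 1.0) and 0.972 for Dlgap3 (rho 0.976). The exact permutation p of r was 2.48e-05 and 4.96e-05, and 0.000595 for both after adjustment over the 24 relations computed, 12 probes against 2 marker lists. The exact permutation p of rho was 4.96e-05 and 0.000397, adjusted to 0.00119 and 0.00476. Without the 2 arrays farthest from the median relay mean, occlusion array 1 and control array 2, r was 0.975 and 0.954, and after the group means were removed it was 0.958 and 0.924. Within the 4 arrays of slide 1 r was 0.979 and 0.939, and within those of slide 2 it was 0.988 and 0.981. Of 26052 probes with a value on every array, 0.0345% followed the relay mean as closely as Shank3 and 0.0998% as closely as Dlgap3. This relation was looked for after the values had been seen and with 2 of the 11 marker lists, a choice that the adjustment does not cover. The permutations also moved arrays between the groups. The part of cell makeup in the group differences of Shank3 and Dlgap3 was not tested.

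The other scaffolds followed the relay markers less closely or in the opposite direction. Dlg2 ran against them (r = -0.866, exact permutation p = 0.0031, adjusted p = 0.0248), with -0.833 without the 2 farthest arrays and -0.717 after the group means were removed. Dlg2 ran with the reticular and inhibitory markers (r = 0.824, exact permutation p = 0.0089, adjusted p = 0.0429), with 0.734 without the 2 arrays farthest from the median of those markers, occlusion array 2 and control array 3, and 0.628 after the group means were removed. By rank, neither relation of Dlg2 passed after adjustment (rho -0.810 and 0.667, adjusted exact permutation p = 0.0747 and 0.192). For Dlgap2 r was -0.831 with the relay mean and 0.880 with the reticular and inhibitory mean, and -0.797 and 0.872 after the group means were removed. These values of Dlgap2 are a description only, since its probe was well above background on 1 of 4 occlusion and 3 of 4 control arrays. For the 10-spot Dlg4 probe r with the relay mean was 0.667 and for Dlg1 it was -0.581 (exact permutation p = 0.0710 and 0.132, adjusted p = 0.189 and 0.257), and after removal of the group means it was 0.11 and 0.24. Within slide 1 r was 0.425 for Dlg4 and -0.357 for Dlg1. Within slide 2 it was 0.821 and -0.685. On Dlg4 the occlusion array with the highest relay mean, array 1, read lowest of its group, and on Dlg1 the occlusion array with the lowest relay mean, array 3, read lowest. Among the control arrays, array 2 had the lowest relay mean and read lowest on Dlg4 and highest on Dlg1.

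**Figure D5:**
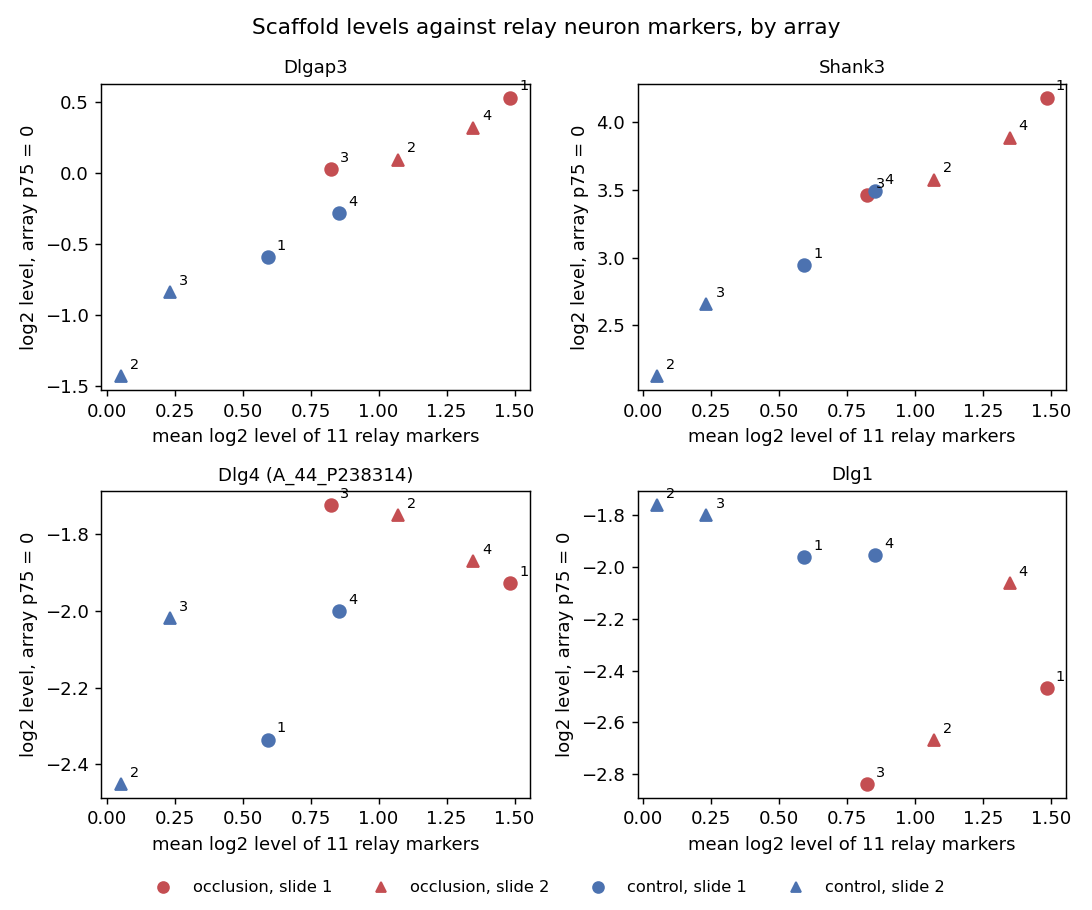
Log2 level of Dlgap3, Shank3, the 10-spot Dlg4 probe and Dlg1 against the mean log2 level of 11 relay neuron markers, 1 point per array (occlusion red, control blue, circles for slide 1, triangles for slide 2, numbers for the replicate). Dlgap3 and Shank3 lie along a rising line that runs through both groups. For Dlg4 and Dlg1 r was 0.11 and 0.24 after removal of the group means.

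The members also varied together in pairs. Dlgap3 and Shank3 ran alongside each other across the 8 arrays (Pearson's r = 0.987), the closest of the 66 pairs of probes, ahead of both Dlg4 probes with each other (0.938). Dlg2 ran against Shank3 (-0.845). These values describe 8 arrays that share the group difference. By a rule set for 1 member of each family, the genes that followed most closely once the means of group and slide were removed were Cant1, Cd46 and Pgap1 for Dlg4 (r 0.991 to 0.997), Ak8, B9d1 and Nlgn1 for Dlgap1 (0.996 to 0.999), and Cyria, LOC683640 and Ccnf for Shank1 (0.992 to 0.997). They are the closest of 12690 genes over 8 arrays with 4 means removed, so high values arise readily.

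Among proteins that bind these scaffolds, 18 of 24 measured genes read higher on occlusion arrays and 6 lower, with a median difference of 0.23 and 0 past the test. Higher without overlap were 5 of the 24 (3.9% of kept probes), 5 stood at an unadjusted p under 0.05 in that direction (6.48% of kept probes) and 1 stood there in the lower direction (4.61%). Dlgap4, the fourth member of the Dlgap family, read 3.15, 3.02, 2.93 and 3.06 on occlusion arrays, against 2.27, 1.92, 2.23 and 2.73 on control arrays. Its groups did not overlap, and the difference was 0.75 (SE 0.17, 1.68-fold, limma adjusted p = 0.403). Next by the test statistic came Sptan1, the brain spectrin that underlies the membrane, at 0.34 (SE 0.10, saturated on 3 arrays, and 0.12 with quantile normalisation). Git1, a signalling adaptor that Shank proteins reach through the exchange factor Arhgef7, followed at 0.37 (SE 0.14). By size, the highest difference of this list was that of Cit, at 0.80 (SE 0.32), also without overlap. Lowest were Baiap2, which encodes IRSp53, a link from Shank and PSD-95 to actin, at -1.09 (SE 0.36, and -1.21, SE 0.40, on a second probe), Sipa1l1, a spine regulator of Rap, at -0.43 (SE 0.24), and Homer3, a binding partner of Shank, at -0.16 (SE 0.15). Baiap2 was highest on control array 3, at 2.50, and its difference was -0.76 without that array. Sipa1l1 came to -0.20 without control array 3 and -0.23 with array weights. Homer3 came to -0.07 without occlusion array 2, -0.10 without control array 1, -0.11 without control array 3, -0.09 with normexp background correction and -0.26 with array weights.

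Of the adhesion molecules and receptors that meet these scaffolds at the membrane, 12 of 18 measured genes read higher and 6 lower, with a median of 0.08 and 0 past the test. Among the highest by their test statistic were Adgrb1, an adhesion receptor that binds PDZ proteins, at 0.76 (SE 0.16, no overlap, and 0.33 on a second probe) and Cacng3, an auxiliary subunit of AMPA receptors, at 0.47 (SE 0.22). The lowest were Lrrc4c, a netrin-G ligand, at -0.55 (SE 0.29), Nlgn1, the neuroligin of excitatory synapses, at -0.21 (SE 0.13), and Lrrc4 at -0.12 (SE 0.15). Other probes read 0.05 for Nlgn1, 0.002 for Lrrc4, and -0.20 and -0.38 for Lrrc4c. Without single arrays, Lrrc4c came to -0.30 (occlusion array 4), Nlgn1 to -0.13 (control array 3), and Lrrc4 to -0.06 (occlusion array 4) and -0.0013 (control array 3).

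Of other PDZ and guanylate kinase scaffolds, used at synapses and in other cells, 6 of 16 measured genes read higher and 10 lower, with a median of -0.08, 0 at an unadjusted p under 0.05 and 0 past the test. Apba1, a presynaptic adaptor, read 0.52 (SE 0.37, and 0.13 without control array 3), Mpp2 0.25 (SE 0.20) and Pick1, a binding partner of AMPA receptors, 0.21 (SE 0.14). Dlg5, a distant relative of the Dlg family, read -0.45 (SE 0.20), Grip2, another binding partner of AMPA receptors, -0.27 (SE 0.14), and Lin7c -0.24 (SE 0.14). Without single arrays, Pick1 came to 0.13 (control array 2), Dlg5 to -0.27 (occlusion array 3), Grip2 to -0.16 (occlusion array 2), and Mpp2 to 0.15 (occlusion array 3), 0.37 (control array 1) and 0.12 (control array 2). With normexp background correction Lin7c came to -0.11, Apba1 to 0.32 and Mpp2 to 0.12, and with array weights Apba1 came to 0.19 and Mpp2 to 0.01. Over the 3 lists of partner genes the signs were thus mixed, and no difference between the lists was tested.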

How the data were processed

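RNA was labelled with Cy3 for Agilent whole-rat arrays, per the labels. The labels name 4 animals in each group, and replicates are treated as separate animals. They also mention a reference design, while every file holds 1 channel. The deposited values are the processed intensity of each spot from Agilent Feature Extraction 9.5.1.1, per the file headers, which took off background, detrended and replaced dim values by surrogates, with no scaling between arrays. A whole-series table from the authors gives that intensity within 0.497%.

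Here each array's 75th percentile of log2 deposited intensity over all but control spots was subtracted, outlier-flagged spots were dropped and spots of a probe averaged. Kept were 27152 probes, well above background on 4 or more of 8 arrays and with 2 or more values per group. Gene names came from RefSeq (GRCr8, names only) by accession for 10735 probes, by a further accession for 117, by symbol for 5537 and by synonym for 3705. The name in the files stayed for 3313, and 17605 had none. Probe sequences and rn3 positions are the files' own. Groups were compared with limma 3.58.1 in R 4.3.3 (lmFit and eBayes, two-sided, adjusted after Benjamini and Hochberg across kept probes, threshold 0.05). Slides were compared with group in the model, and the interaction was fitted separately. The fit was tested on simulated data. From each partner list 3 genes are named at either end of the ranking by limma's moderated statistic, a gene being read by its brightest kept probe. One gene that this rule picks is not reported here. Members, lists and tests were chosen with earlier results of these data known. The number of arrays limits the precision.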

Additional observations from a re-analysis of the deposited data

How the results depend on the processing

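All alternatives but those that leave out an array of the slide interaction, and the relation to the marker lists, were planned. Over 20 alternatives, 0 of 238 values of the member probes passed the threshold, and 1 changed sign: Dlg3 read 0.00098 without control array 3, and its range without single arrays was -0.39 to 0.00098. The count of probes past the threshold between the groups was 0 under every alternative but normexp background correction, where it was 1 (adjusted p = 0.0478, a probe of no member). Leaving out single arrays kept it at 0, the median over the member probes between 0.13 and 0.33 and the number of higher members between 8 and 9. The deviations of same-numbered arrays correlated at 0.355, 0.514, -0.0715 and -0.293, against -0.429 to 0.335 for differently numbered arrays. The values 0.355 and 0.514 lay above that range and the others within it. The arrays numbered 1 shared a slide, as did those numbered 2, while those numbered 3 and those numbered 4 lay on different slides. Pairing and a shared slide cannot be told apart here. Whether the replicate numbers pair the arrays is therefore not settled. With the replicate block the count of probes past the threshold between the groups was also 0. Among partner genes, Lrrc4 changed sign with array weights (0.011) and on slide 1 alone (0.094), and Sipa1l1 on slide 1 alone (0.0096).

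Between slides the count was 1267 with normexp and 1101 with the filter on all 8 arrays, which tests fewer probes, and 1514 to 1833 without single arrays. The interaction gave 0 to 2 without single arrays: 2 without occlusion array 3, 1 each without occlusion array 2, control array 2 and control array 3, and otherwise 0. Slide differences of members changed sign 20 times in 202 values, 0 of them past the threshold. Shank2 (bright probe) read -0.011 with quantile normalisation, -0.00095 with median scaling, -0.025 with normexp and -0.051 with array weights, the Dlg4 probes read 0.0080 and 0.044 with normexp, and Dlg3 -0.0069 with array weights. Without single arrays the slide difference ran from -0.073 to 0.14 for Shank2, from -0.21 to 0.17 for Dlgap1, from -0.10 to 0.069 and from -0.16 to 0.037 for the Dlg4 probes, from -0.14 to 0.33 for Dlg3 and from -0.093 to 0.94 for Dlgap2. The causes were not tested. Dlgap2 and the dim Shank2 probe are limited by their signal over background.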
